A study of Mus musculus with 10 samples.

Results

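Ppara, Crot, Acot1, Acot2 and Acot3 are genes of hepatic fatty acid handling. They were chosen with earlier results of these data known, as the probe sets whose platform annotation gives exactly 1 of these symbols. The rule found 5 probe sets, 1 per gene, of 12411 tested. Those of the tested probe sets with exactly 1 symbol stand for 7542 genes. Liver RNA of mice was hybridised to 10 Affymetrix MG_U74Bv2 oligonucleotide arrays, 2 for each of 5 groups.

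In the transgenic study, TgSREBP-1a and TgSREBP-2 mice carried human SREBP-1a or SREBP-2 as a transgene, in its active nuclear form. These are transcription factors that drive fatty acid and cholesterol synthesis. The controls were wild type littermates. All were male, aged 12 to 16 weeks, and ate a diet high in protein and low in carbohydrate for 2 weeks, wild type mice included, because this diet elicits strong expression of the transgenes. In the Scap study, the liver-specific Scap-/- mice carried MX1-Cre, and they and the corresponding wild type mice had 4 injections of polyinosinic-polycytidylic acid, which induces that Cre recombinase. SCAP is the escort protein that SREBP precursors need for activation. Scap study mice were males aged 10 to 12 weeks on Teklad chow, and livers were taken 14 days after the last injection. RNA of 5 livers was combined into 1 pool of 20 µg per group, and each pool was hybridised to 2 arrays. Every p-value below therefore sets a difference between pools against the spread between duplicate hybridisations, and the spread between mice was not measured.

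Ppara encodes PPARalpha, a nuclear receptor that is activated by fatty acids and binds DNA together with RXR. In liver it raises the genes of fatty acid oxidation and ketone body synthesis, most of all during fasting. Crot, carnitine O-octanoyltransferase, is a peroxisomal enzyme that hands medium-chain acyl groups, shortened in the peroxisome, to carnitine for export. Acyl-CoA thioesterases split acyl-CoA into free fatty acid and coenzyme A. In the mouse, Acot1 is a cytosolic enzyme of this family, Acot2 a mitochondrial one and Acot3 a peroxisomal one, and all 3 genes are known PPARalpha targets.

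In RefSeq gene order of GRCm38.p6, the thioesterase genes lie in a row on chromosome 12, as Acot2, Acot1, Acot4, Acot3, Acot5 and Acot6. Acot4, Acot5 and Acot6 were not analysed, because no probe set of the array is annotated to any of them alone. Whether probes of 1 family member also bind RNA of another was not tested. The promoters of Acot1, Acot2 and Acot3, RefSeq windows of 250 bases before and 50 from the start site, are shown because these neighbouring family members differed in their changes. All 3 lie on the plus strand: Acot1 at chr12:84009252-84009551, Acot2 at chr12:83987611-83987910 and Acot3 at chr12:84051894-84052193, which is the first of 2 overlapping Acot3 windows. Capitals mark the E-box CANNTG, a motif that SREBPs and other factors can bind, and AGGTCA on the opposite strand (TGACCT), the core that nuclear receptors bind.
Acot1: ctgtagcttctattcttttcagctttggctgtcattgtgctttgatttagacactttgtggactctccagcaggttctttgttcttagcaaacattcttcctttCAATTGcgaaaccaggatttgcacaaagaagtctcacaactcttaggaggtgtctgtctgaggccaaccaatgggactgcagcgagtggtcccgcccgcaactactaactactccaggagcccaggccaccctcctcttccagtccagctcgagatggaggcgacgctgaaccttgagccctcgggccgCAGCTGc
Acot2: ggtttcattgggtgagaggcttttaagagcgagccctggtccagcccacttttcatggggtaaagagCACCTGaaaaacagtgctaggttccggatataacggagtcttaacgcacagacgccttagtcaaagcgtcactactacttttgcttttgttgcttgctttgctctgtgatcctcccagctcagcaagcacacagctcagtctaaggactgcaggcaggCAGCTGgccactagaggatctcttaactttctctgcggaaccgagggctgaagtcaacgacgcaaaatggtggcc
Acot3: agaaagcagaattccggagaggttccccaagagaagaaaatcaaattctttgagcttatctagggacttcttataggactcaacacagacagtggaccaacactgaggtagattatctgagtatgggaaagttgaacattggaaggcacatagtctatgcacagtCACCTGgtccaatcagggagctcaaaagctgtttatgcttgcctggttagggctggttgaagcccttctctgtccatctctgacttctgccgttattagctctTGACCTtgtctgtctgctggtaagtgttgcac

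All 5 genes had a window in the table of 32851 windows, and both strands were searched. The E-box occurred at -146 and 44 relative to the start site of Acot1, at -183 and -25 in Acot2, at -85 in this Acot3 window and at -132 in Ppara, and not in the Crot window. It is a common motif, held by 72.3% of all windows. Acot3 was the only one of the 5 with AGGTCA, at 19, on the minus strand; 16.3% of all windows hold that motif. Repeats of AGGTCA 1 base apart, the arrangement bound by PPARalpha with RXR, were in 0.0396% of windows and in none of these 5. TCACNCCAC, the core of a sterol regulatory element, was in 1.24% of windows and in none of these 5. Aligned pairwise, the Acot1, Acot2 and Acot3 windows were identical in 44.8 to 45.7% of columns. Pairs that included Ppara or Crot were alike in this, at 43.1 to 50.8%. The GC content was 52.0% in Acot1, 51.3% in Acot2 and 45.7% in Acot3, against 74.7% in Ppara and 69.7% in Crot, and the median of all windows was 52.7%.

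Values are the authors' log2 expression values, so that a difference of 1 is a doubling. Apart from the marker sums and the choice of brightest probe sets and genes, levels of different probe sets are not set against each other. Calls required a limma adjusted p under 0.05 together with a minimum of 1.5-fold in either direction, and errors are limma standard errors with n = 2 arrays per group. Duplicates were not always the closest arrays. TgSREBP-2 array 2 correlated more closely with both arrays of its wild type pool (0.9908 and 0.9915) than with the other TgSREBP-2 array (0.9891). Each of the 4 Scap study arrays lay closer to an array of the other pool than to its duplicate: Scap-/- array 1 and array 2 correlated at 0.993 and 0.9892 with wild type array 2, against 0.9888 with each other, and wild type array 1 at 0.9881 with Scap-/- array 1, against 0.9871 with wild type array 2. The targeted gene bore out the knockout label on its brighter probe set. That Scap probe set read 7.94 and 7.75 in Scap-/- livers, against 9.24 and 8.89 in their wild type controls. The other, dim Scap probe set read 3.56 and 3.63, against 3.37 and 3.58, and showed no fall. The array medians lay between 5.625 and 5.662. The mean signal of the Acot3 probe set lay below the 25th percentile of all, where a filter on dim probe sets removes it.

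In TgSREBP-1a livers all 5 members were called against wild type, with the receptor and the peroxisomal carnitine transferase lower and the 3 thioesterases higher. Over all probe sets tested 2.18% were called in this comparison, 1.36% higher and 0.814% lower. The largest of these changes was that of Acot2, 3.16-fold higher, and the smallest that of Acot3, 1.52-fold higher. In TgSREBP-2 livers 1 of 5 was called, Acot1, which was 2.21-fold lower, beside 0.5% of all probe sets. In Scap-/- livers 0 of the 5 were called by limma, beside 0.274% of all probe sets. There 0 of the 5 reached an unadjusted p under 0.05, against 960 of the 12411 probe sets. The members were chosen with earlier results of these data known, so counts of called members, here and below, are not independent of that choice.

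**Figure D1:**
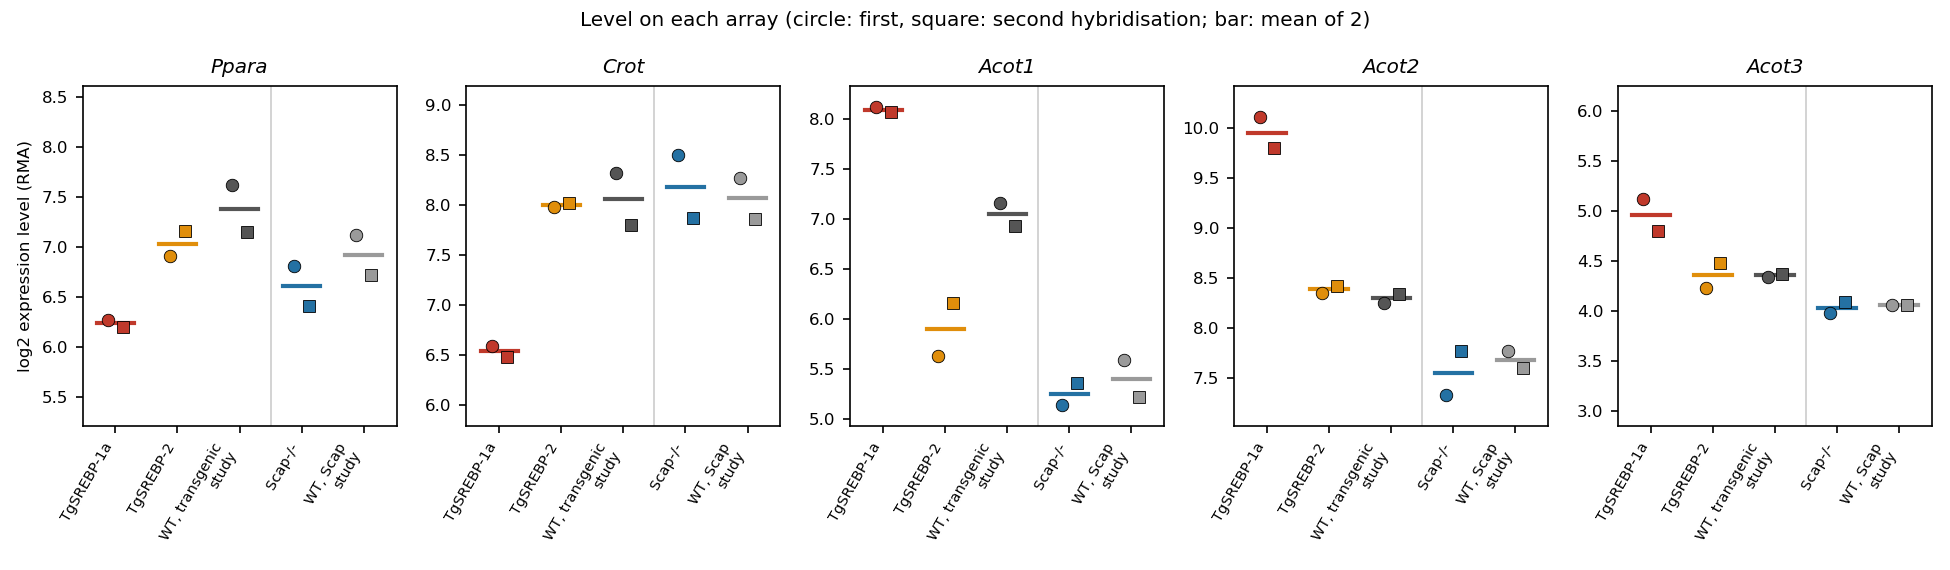
Log2 level of each member on every array, with 1 panel per gene, the 5 groups on the horizontal axis and the group mean as a bar. The TgSREBP-1a arrays are the lowest for Ppara and Crot and the highest for Acot1, Acot2 and Acot3.

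Ppara read 6.27 and 6.20 in TgSREBP-1a livers, 6.91 and 7.16 in TgSREBP-2 livers, and 7.62 and 7.15 in wild type livers of the same study. Both TgSREBP-1a arrays lay below all others of the study, while TgSREBP-2 array 2 reached the lower wild type array. The fall in TgSREBP-1a against wild type was -1.15 ± 0.19 (SE; 2.21-fold lower; limma, adjusted p = 0.00866). This call was lost without TgSREBP-1a array 1 (adjusted p = 0.0784), TgSREBP-1a array 2 (0.0836) or wild type array 1 (0.103), with differences between -1.18 and -0.91. In bulk liver, fewer cells that express a gene and less of its RNA per cell cannot be told apart. The difference of TgSREBP-2 from wild type was -0.35, with a 95% interval from -0.77 to 0.07 (limma, adjusted p = 0.693). In the Scap study Ppara read 6.81 and 6.41 in Scap-/- livers, against 7.12 and 6.72 in wild type livers, so the groups overlapped. That difference was -0.31 (95% interval -0.73 to 0.11; limma, adjusted p = 0.696). The difference of TgSREBP-1a from TgSREBP-2 in Ppara was -0.80 ± 0.19, which missed the threshold (limma, adjusted p = 0.065). It passed with the replicate number as a block (0.0176), after quantile normalization (0.0399) and with only the 4 arrays of these groups (0.00732). Ordered from high to low, the group means ran from wild type of the transgenic study through TgSREBP-2, wild type of the Scap study and Scap-/- to TgSREBP-1a, and no neighbours in that order differed at the threshold. Of all probe sets, 1.73% were called between TgSREBP-2 and wild type of the Scap study, and 2.57% between TgSREBP-1a and Scap-/-, pairs that meet in this order.

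Crot read 6.59 and 6.49 in TgSREBP-1a livers, 7.98 and 8.02 in TgSREBP-2 livers, and 8.32 and 7.80 in wild type livers. It read 8.50 and 7.88 in Scap-/- livers, against 8.28 and 7.86 in their wild type controls. The TgSREBP-1a arrays stood apart below the 8 others, which overlapped among themselves. Against wild type Crot fell by 1.52 on the log2 scale in TgSREBP-1a (SE 0.22; 2.87-fold lower; limma, adjusted p = 0.00334), and this call held without each of the 4 arrays in turn (highest adjusted p 0.0472). The difference of TgSREBP-2 from wild type was -0.06 (95% interval -0.55 to 0.43), and that of Scap-/- from wild type was 0.12 (-0.37 to 0.61), neither of them called. From high to low the order of group means was Scap-/-, wild type of the Scap study, wild type of the transgenic study, TgSREBP-2 and TgSREBP-1a, and among neighbours the gap to TgSREBP-1a alone was called.

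Acot1, the cytosolic thioesterase, moved in opposite directions in the transgenic lines. It read 8.12 and 8.07 in TgSREBP-1a livers, 5.63 and 6.16 in TgSREBP-2 livers, and 7.16 and 6.93 in wild type livers. The 3 groups did not overlap, with wild type between the lines. Acot1 was 1.05 ± 0.18 above wild type in TgSREBP-1a (2.07-fold higher; limma, adjusted p = 0.00982). It was -1.15 ± 0.18 from wild type in TgSREBP-2 (2.21-fold lower; limma, adjusted p = 0.0188), which ranked 7 from the lowest of the 12411 probe sets. The rise was lost without TgSREBP-1a array 1 (adjusted p = 0.109), TgSREBP-1a array 2 (0.0723) or wild type array 2 (0.114). The fall was lost without TgSREBP-2 array 1 (adjusted p = 0.141), wild type array 1 (0.277) or wild type array 2 (0.0929), and held without TgSREBP-2 array 2 (-1.41; 0.0111). Both directions were the same in every one of these fits.

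In the Scap study Acot1 read 5.14 and 5.36 in Scap-/- livers, against 5.58 and 5.22 in wild type livers. These overlapping values differed by -0.16 (95% interval -0.55 to 0.24). Acot1 also differed between the wild type pools, by 1.64 ± 0.18 (3.12-fold higher in wild type of the transgenic study; limma, adjusted p = 0.00382), which ranked 3 from the highest of the 12411 probe sets. It was the 1 member of 5 called there, beside 0.508% of all probe sets, and this call was lost without array 1 of the transgenic study's wild type pool (1.53; adjusted p = 0.05). At an unadjusted limma p under 0.05 the count was 4 of 5, against 1204 of the 12411 probe sets. Ppara and Acot3, neither called, differed by 0.47 and 0.29, both higher in wild type of the transgenic study. Diet, age, injections and breeding differ between these pools and cannot be told apart. From high to low, Acot1 ran from TgSREBP-1a through wild type of the transgenic study, TgSREBP-2 and wild type of the Scap study to Scap-/-. The first 2 gaps in that order were called and the others were not: TgSREBP-2 livers stood 0.49 above the Scap study's wild type livers (limma, adjusted p = 0.153).

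Acot2, the mitochondrial thioesterase, read 10.11 and 9.80 in TgSREBP-1a livers, 8.35 and 8.42 in TgSREBP-2 livers, and 8.25 and 8.34 in wild type livers. The TgSREBP-1a arrays were far above the other 4, which lay within a narrow band. Acot2 rose by 1.66 ± 0.15 in TgSREBP-1a against wild type (3.16-fold; limma, adjusted p = 0.000157), and the call held without each array in turn (highest adjusted p 0.00426). In TgSREBP-2 the difference from wild type was 0.09 (95% interval -0.25 to 0.43). In the Scap study Acot2 read 7.33 and 7.77 in Scap-/- livers, against 7.76 and 7.59 in wild type livers, a difference of -0.13 (-0.47 to 0.21). The wild type pools differed by 0.62 in Acot2, short of the threshold (limma, adjusted p = 0.164). From high to low the order was TgSREBP-1a, TgSREBP-2, wild type of the transgenic study, wild type of the Scap study and Scap-/-, in which the first gap was called and no other between neighbours.

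Acot3, the peroxisomal thioesterase, had the smallest called change. It read 5.12 and 4.80 in TgSREBP-1a livers, 4.23 and 4.48 in TgSREBP-2 livers, and 4.34 and 4.36 in wild type livers. Both TgSREBP-1a arrays lay above the others. The rise in TgSREBP-1a was 0.61 ± 0.12 (1.52-fold; limma, adjusted p = 0.0274), close to the minimum of 1.5-fold. It was lost without TgSREBP-1a array 1 (0.45; adjusted p = 0.295), wild type array 1 (0.60; 0.205) or wild type array 2 (0.62; 0.168). TgSREBP-2 and wild type livers differed by 0.00084 (95% interval -0.28 to 0.28). Acot3 read 3.97 and 4.09 in Scap-/- livers, against 4.06 and 4.06 in their wild type controls, a difference of -0.03 (-0.31 to 0.25). The groups had the same order as for Acot2, and again the first gap alone was called between neighbours.

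**Figure D2:**
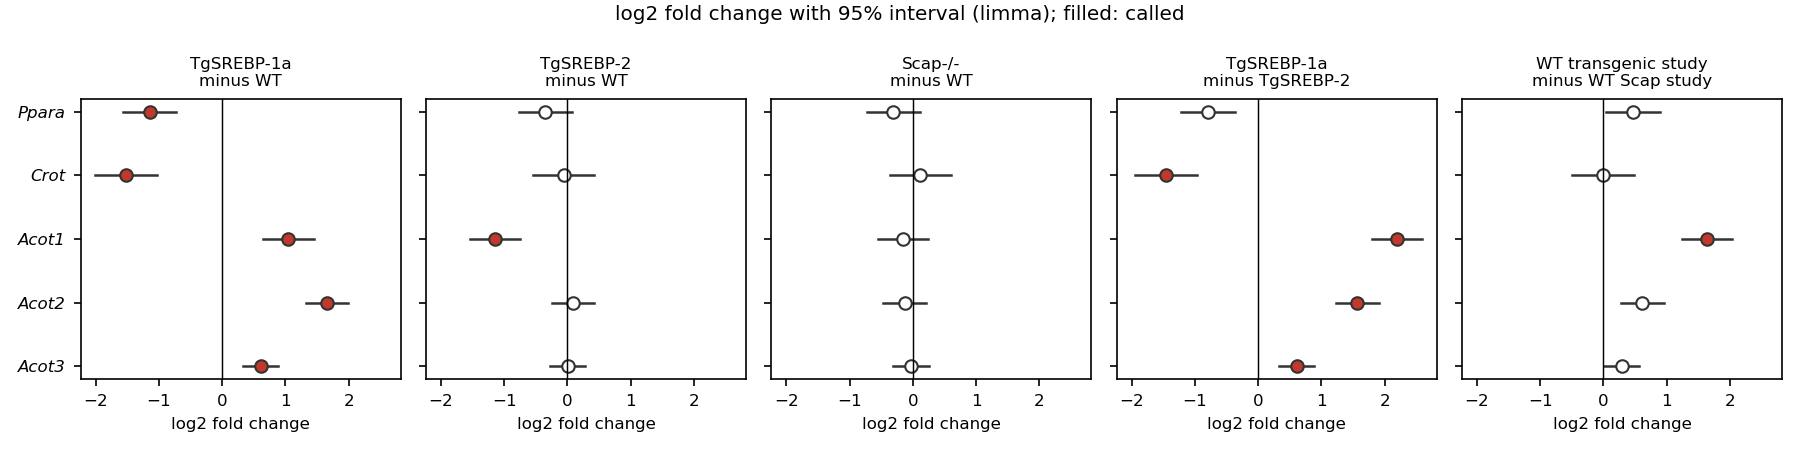
Log2 difference of each member in the 5 comparisons, with points for the limma estimate and bars for its 95% interval; filled points were called. Acot1 lies at 1.05 in TgSREBP-1a and at -1.15 in TgSREBP-2 against the same wild type arrays, while the 5 intervals of the Scap comparison all include 0.

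The transgenic lines share their wild type arrays, so they were compared directly. Of the members, 4 of 5 were called between TgSREBP-1a and TgSREBP-2, beside 1.86% of all probe sets. Acot1 in TgSREBP-1a livers exceeded that of TgSREBP-2 livers by 2.20 ± 0.18 (4.58-fold; limma, adjusted p = 0.000135), which ranked 4 from the highest. Acot2 was 1.57 ± 0.15 higher in TgSREBP-1a (2.97-fold; adjusted p = 0.000437). Both calls held without each array in turn. Acot3 was 0.61 ± 0.12 higher (limma, adjusted p = 0.0339) and Crot differed by -1.46 ± 0.22, lower in TgSREBP-1a (adjusted p = 0.00567). The Acot3 call was lost without TgSREBP-1a array 1 (0.34) or TgSREBP-2 array 1 (0.284), and the Crot call without TgSREBP-1a array 1 (0.0606), TgSREBP-1a array 2 (0.062) or TgSREBP-2 array 1 (0.0557), all limma adjusted p-values. With only the 4 arrays of these groups in the fit Acot3 was not called (0.0637).

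The size of the spread between duplicates differed by gene. For Crot, array 1 exceeded array 2 by 0.63 in Scap-/-, by 0.52 in wild type of the transgenic study and by 0.41 in wild type of the Scap study. For Ppara the same gaps were 0.40, 0.47 and 0.40. In TgSREBP-1a and TgSREBP-2 the gaps were 0.10 and -0.04 for Crot, and 0.07 and -0.25 for Ppara. Over all probe sets the standard deviation of this gap was 0.172 in TgSREBP-1a, 0.221 in TgSREBP-2, 0.162 in wild type of the transgenic study, 0.225 in Scap-/- and 0.246 in wild type of the Scap study. The duplicates of Acot1 in TgSREBP-2 and of Acot2 in Scap-/- also lay well apart, as their values above show.

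Other genes around these members, from lists of the pathway, gave 7 calls among 66 measured list entries in TgSREBP-1a (10.6%, beside 2.18% of all probe sets). At an unadjusted p under 0.05 the count was 21 of 66 entries (31.8%), beside 1279 of the 12411 probe sets (10.3%). The lists were chosen with earlier results of these data known, so their counts, here and below, are not independent of that choice. List genes were also read by their brightest probe set, whereas the shares beside them cover all probe sets, so the 2 are not like for like. Fatty acid oxidation in mitochondria had 5 of 27 listed genes on the array, with 0 called by limma, 0 at an unadjusted p under 0.05, and a median log2 change of 0.18, against -0.02 over all probe sets tested. Its brightest members were Bdh1 (0.18), a ketone body dehydrogenase, and the acyl-CoA dehydrogenase family genes Acad10 (0.12) and Acad11 (0.33). Of 8 measured among 25 genes of peroxisomal oxidation 0 were called (2 at an unadjusted p under 0.05; median 0.08), with Pecr (-0.43), the trans-2-enoyl-CoA reductase, Tysnd1 (-0.06), a peroxisomal protease, and Hacl1 (0.33), an enzyme of alpha oxidation, as the brightest. Of 7 measured among 18 peroxins and related genes 0 were called (3 at an unadjusted p under 0.05; median -0.03), Pex16 (0.46), Pxmp4 (-0.39) and Pex11g (-0.11) being the brightest. Of 41 other PPARalpha target genes 4 were measured and 0 called, with 2 at an unadjusted p under 0.05. Creb3l3, a transcription factor of fasting, read -0.32, Lpin2, a phosphatidate phosphatase, 0.85 and Pex11a, a peroxisome division gene, 0.18 in TgSREBP-1a against wild type (limma, adjusted p = 0.472, 0.122 and 0.764).

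Among the other lists, Acnat1, a peroxisomal acyltransferase related to the thioesterases, was the 1 called of 8 measured among 20 other thioesterase family genes. It was -1.38 ± 0.26 in TgSREBP-1a (limma, adjusted p = 0.0176), a call that leaving out any 1 of the 4 arrays ended (0.0651 to 0.2). Of 16 measured among 33 nuclear receptors and coregulators 1 was called: Lpin1, which encodes a phosphatidate phosphatase that also coactivates PPARalpha, was 1.30 ± 0.22 higher (limma, adjusted p = 0.00956), lost without wild type array 2 (0.114) or TgSREBP-1a array 1 (0.126). Rxra, the partner of PPARalpha, chosen after its values were seen, read -0.51 and -0.38 on its 2 probe sets, neither called.

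Of 18 measured among 34 genes that form acyl-CoA or turn over coenzyme A, 3 were called higher and 2 lower, beside 1.36% and 0.814% of all probe sets. Acsl3, an acyl-CoA synthetase of long-chain fatty acids, was 2.18 ± 0.15 higher in TgSREBP-1a on its brighter probe set (limma, adjusted p = 2.53e-05; held without each array), and 0.15 on the other, which was not called. The synthetase Acsl4 (1.10) and the pantothenate kinase Pank3 (0.76) were higher, while the medium-chain synthetase Acsm1 (-1.13) and the glycine acyltransferase Glyat (-1.04) were lower, all of which were called. Without wild type array 2 or TgSREBP-1a array 1 the Acsl4 call was lost (adjusted p = 0.0673 and 0.0722), and without wild type array 1 or TgSREBP-1a array 2 that of Acsm1 (0.093 and 0.0845). Without wild type array 1, wild type array 2 or TgSREBP-1a array 1 that of Pank3 was lost (0.0616, 0.0985 and 0.123), and without wild type array 1, wild type array 2 or TgSREBP-1a array 2 that of Glyat (0.217, 0.055 and 0.195). Pank3 has 3 probe sets, of which another was called higher (1.03 ± 0.17; limma, adjusted p = 0.00799) and the remaining one read -0.03. The second Pank3 call was lost without wild type array 1, wild type array 2 or TgSREBP-1a array 1 (0.0574, 0.0829 and 0.11). In TgSREBP-2 Acsl3 was the 1 call of the 66 measured entries (1.52%, beside 0.5% of all probe sets) when each gene was read by its brightest probe set, at 1.24 ± 0.15 (limma, adjusted p = 0.00334) and -0.20 on the other, and leaving out either wild type array ended the call (0.0525 and 0.054). The second Pank3 probe set was called in TgSREBP-2 too (0.99 ± 0.17; limma, adjusted p = 0.0342), a call lost without each of the 4 arrays in turn (0.0917 to 0.324), while its brightest probe set was not (0.57; 0.133). In Scap-/- limma called 0 of the 66 measured entries of the 7 lists, with 9 at an unadjusted p under 0.05 (13.6%, beside 7.74% of all probe sets). Those furthest from wild type, chosen after their values were seen, were Pank1 (-1.40; adjusted p = 0.104), Hacl1 (-0.88; 0.385) and Acsl3 (-0.63; 0.25).

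**Figure D3:**
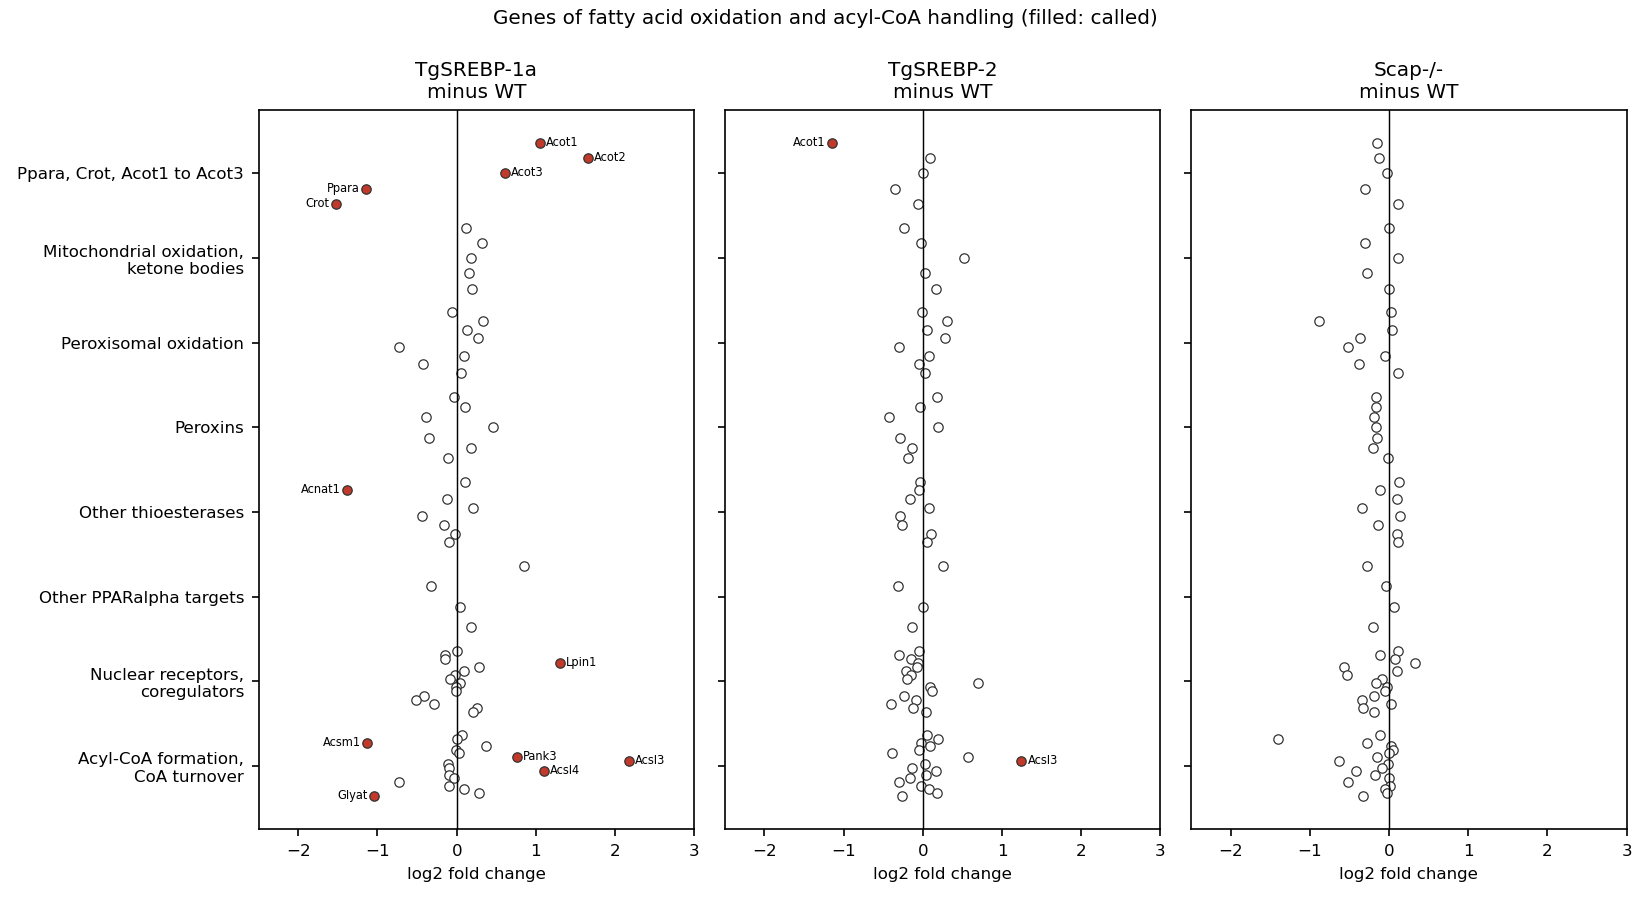
Log2 difference from wild type of the 5 members (top row) and of every measured gene of the 7 pathway lists, by list and comparison, with filled points for called genes. In TgSREBP-1a the calls outside the members fall in 3 of the 7 lists, and in Scap-/- no point is filled.

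The genes whose 5 group means ran most like a member's were ranked by the root mean square difference of centred log2 means, over 5 groups that share the same arrays. For Crot the nearest was Acnat1 (0.152), then Cyp4f14 (0.181), a fatty acid hydroxylase family gene, and Ppm1k (0.193), a mitochondrial phosphatase. Lpin1 was nearest to Acot1 (0.420) and second to Acot2 (0.190), after Rcan2 (0.179) and before Sgk2 (0.229). Camk1d (0.534) and Depp1 (0.549) came next for Acot1, whose nearest genes were more distant than those of the other members. Ppara lay closest to the scavenger receptor gene Scara5 (0.085), followed by Cyp2c23 and Slc25a42 (both 0.119). For Acot3 the nearest were Coq8b (0.0719), Rora (0.0722) and Maff (0.0738), where the differences are small because the whole range is small.

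**Figure D4:**
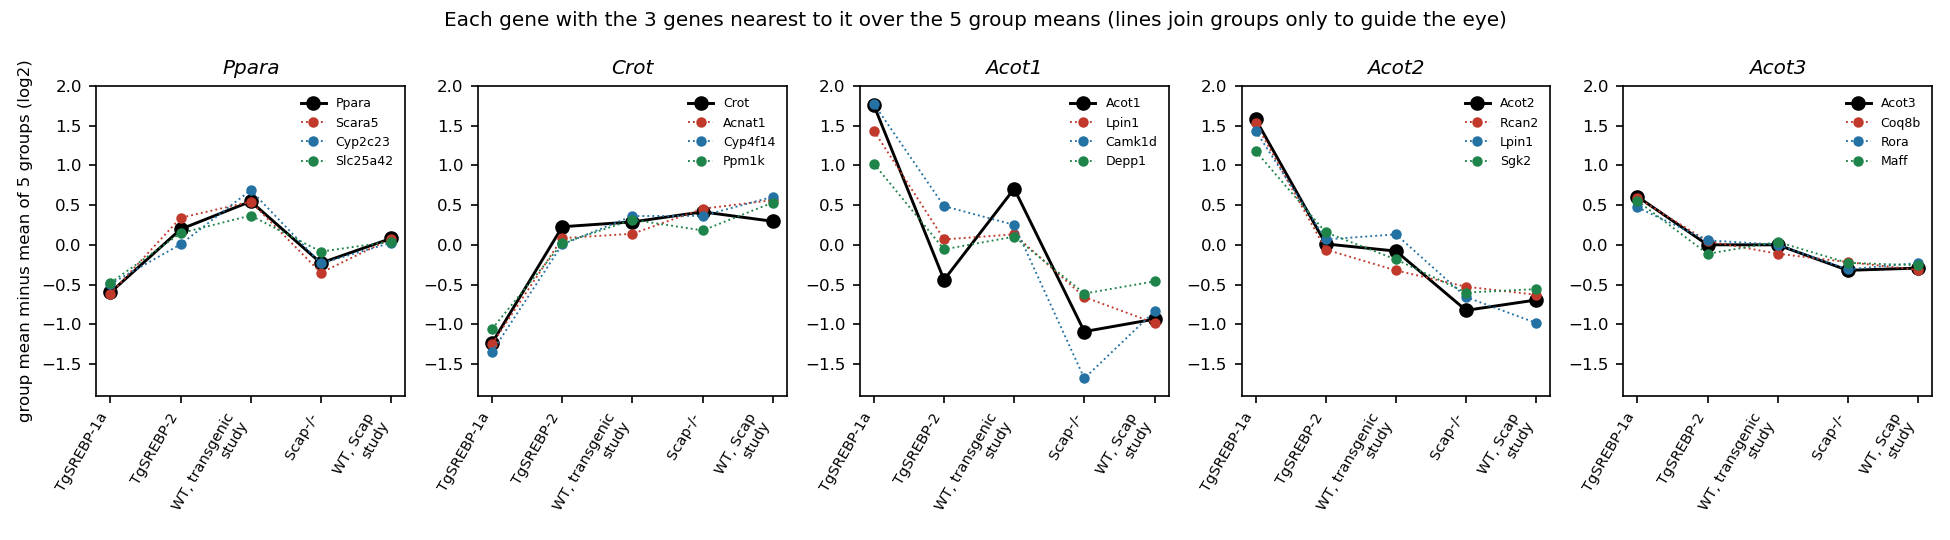
Group means of each member and of its 3 nearest genes, each centred on its own mean over the 5 groups, on a log2 scale. Acot1 spans the widest range and has the most distant nearest genes, from 0.420 to 0.549.

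Of the few measured genes next to Ppara or beside the thioesterase row, none was called in any of the 5 comparisons. Crot had no measured gene among its nearest neighbours. Over all probe sets 0.274 to 2.18% were called in these comparisons, so the absence of a call among so few genes says little. Beside the thioesterase row, Riox1 read 0.02, Heatr4 -0.23 and the nearer-to-zero probe set of Dnal1 0.002 in TgSREBP-1a against wild type. Beside Ppara, Wnt7b, Cdpf1 and Ttc38 were measured and likewise not called.

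Of the 20 measured markers of cell types, a few were called in each comparison with wild type and most were not. Of 17 hepatocyte markers 2 were measured: Apoa1, at a mean level of 13.1, read -0.42 in TgSREBP-1a and was not called, while C8a read -2.60 and was called. Their summed linear level was 7504 to 8132 in TgSREBP-1a livers and 5217 to 10754 in TgSREBP-2 livers, against 10432 to 11327 in wild type livers. Apoa1 makes up most of this sum, which was not tested as a measure of hepatocyte content. Of 13 pancreatic acinar markers 3 were measured, and their sum was 226.6 to 228.4 in TgSREBP-1a livers and 3217 to 4228 in TgSREBP-2 livers, against 1970.4 to 2642 in wild type livers. In the Scap study that sum was 259.7 to 268.7 in Scap-/- livers, against 911.5 to 1114 in wild type livers. Of these 3 acinar markers, Cpb1 and Cela3b were called lower in TgSREBP-1a and in Scap-/-, each against its wild type. Of all probe sets, 2.18% and 0.274% were called in these comparisons, in either direction. The median log2 difference of the 3 acinar markers was -3.84 in TgSREBP-1a and -1.89 in Scap-/-. With each array left out in turn, Cpb1 read -4.91 to -4.43 in TgSREBP-1a and -3.43 to -2.998 in Scap-/-. Cela3b read -4.05 to -3.63 in TgSREBP-1a and stayed lower in Scap-/- in every such fit. Lyve1 (0.64), 1 of 5 measured of 14 endothelial markers, and Cd163 (0.91), 1 of 2 measured of 12 Kupffer cell and macrophage markers, were called higher in TgSREBP-1a. Without wild type array 1, wild type array 2 or TgSREBP-1a array 1 the Lyve1 call was lost (adjusted p = 0.058, 0.0661 and 0.0904), and that of Cd163 was lost without each of the 4 arrays in turn (0.0609 to 0.0888). None of 2 stellate, 2 bile duct, 1 adipocyte and 3 leukocyte or erythroid markers was called there. In TgSREBP-2 against wild type 2 of the 20 measured markers were called higher, beside 0.5% of all probe sets called in either direction. The acinar Ctrc read 1.51 (limma, adjusted p = 8.88e-05), a call that held without each array. Tfrc, from the list of 15 leukocyte and erythroid markers, read 1.502 (limma, adjusted p = 0.0163). Its call was lost without each array in turn, with differences from 1.34 to 1.66. The other 2 measured of that list were not called. The part of these cell types in the changes of the members was not tested.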

How the data were processed

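The authors deposited log2 expression values per probe set for 10 arrays. RMA is named in the submitters' processing notes (background correction, equalised distributions, probe summary), with no version, whereas the series' design text names Microarray Suite 5.0. The array medians lay close together, which does not settle which was used. Of 12477 probe sets, 66 controls were left out and 12411 tested. Symbols came from the platform's annotation: 10581 probe sets had 1 symbol, 178 several and 1652 none. A gene with several probe sets was represented by the one with the highest mean.

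With limma 3.58.1 (lmFit, eBayes) in R 4.3.3, all arrays entered 1 linear model of group means, with two-sided tests and 1 spread shared by all groups, with Benjamini-Hochberg adjustment over all probe sets, after a check on simulated data. Precision is limited by the single pool and the 2 arrays per group. The median standard error of a difference was 0.115, which holds the spread between hybridisations and not that between mice. Named genes are the members, called genes of the lists, up to 3 brightest genes of a list without calls, the 3 genes nearest to each member, and Scap. Outside that rule, markers, chromosome neighbours, Rxra, and the uncalled genes of the Scap-/- lists were named after their values were seen. The members and the lists were chosen with earlier results of these data known. Promoters came from RefSeq (GRCm38.p6), and no protein sequences were used here. Probes of the related Acot genes may bind each other's transcripts, and this was not tested. Alternatives were a replicate block, another normalization, filters, fold minimums, fewer arrays and each array left out.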

Additional observations from a re-analysis of the deposited data

Results flagged for a closer look

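The effects of the 2 transgenes, each against the same wild type arrays, differed by a direct test between the lines for 4 members. The effect of TgSREBP-1a minus that of TgSREBP-2 was 2.20 for Acot1 (limma, adjusted p = 0.000135), 1.57 for Acot2 (0.000437), 0.61 for Acot3 (0.0339) and -1.46 for Crot (0.00567), on the log2 scale. For Acot1 the effects also had opposite signs. No group held enough arrays for a search for single arrays that stand apart.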

How the results depend on the processing

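Leaving out each array in turn moved the count of called members most. It gave 2 to 3 in TgSREBP-1a against wild type (5 with all arrays), 0 to 1 in TgSREBP-2 against wild type (1), 0 to 0 in Scap-/- against wild type (0), 2 to 4 between the transgenic lines (4) and 0 to 1 between the wild type pools (1). In these fits 1 group has a lone array, which is assumed to vary like the other groups. Only the replicate number, 1 or 2, is shared between groups, and the labels do not say what it marks: deviations of same-numbered arrays correlated at 0.41 between TgSREBP-1a and wild type, 0.057 between TgSREBP-2 and wild type and 0.60 in the Scap study. With the replicate number as a block the counts were 5, 1, 0, 5 and 1, the gain being Ppara between the transgenic lines (adjusted p = 0.0176), which was also called after quantile normalization (0.0399) and with only the 4 arrays compared (0.00732). With a minimum of 2-fold the counts were 4, 1, 0, 3 and 1, because Acot3 falls short of it, and a filter on dim probe sets at the 25th percentile removed Acot3, leaving 4 and 3 where it had been called. Between the transgenic lines Acot3 was not called with only the 4 arrays compared (0.0637). Over the single members, 271 alternative values kept their side of the threshold, 3 gained a call, 21 lost one and 0 changed direction where called. Averaging several probe sets of a gene could not be run, since each member has 1. The cause of the lost calls was not tested beyond the fewer arrays. Signal limits Acot3, and the probe level data were not used here.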
